A study of Drosophila melanogaster with 2 samples.

Results

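The nuclear respiratory chain genes are those protein-coding genes on the Drosophila chromosome arms whose symbol begins with ND-, UQCR-, COX and a digit, or ATPsyn. The Ensembl annotation of the fly genome held 80 of them among 13945 protein-coding genes on the 6 arms 2L, 2R, 3L, 3R, 4 and X. They comprised 40 genes of complex I, 9 of complex III, 16 of complex IV and 15 of complex V. In 21 of the 80 the symbol closes with L, or with L and a digit, which marks a copy of another subunit gene. ND-MNLL also ends in L but is no copy, and it was kept among the 59 other genes.

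The respiratory chain lies in the inner mitochondrial membrane. Complex I, the NADH dehydrogenase, and complex II, the succinate dehydrogenase, pass electrons to ubiquinone, complex III passes them to cytochrome c, and complex IV, cytochrome c oxidase, passes them to oxygen. Complex V, the ATP synthase, uses the resulting proton gradient to make ATP. A few subunits are encoded by the mitochondrial genome and all others by nuclear genes, so assembly needs both. In Drosophila many of the copies are known as duplicates expressed mainly in the testis.

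Occupancy of the Ladybird early protein (Lbe), a homeodomain factor known from heart and muscle specification, was mapped by chromatin immunoprecipitation and sequencing. The single group was whole lbe-GFP embryos of both sexes, collected from 0 to 24 h after laying, which stably carry Lbe with GFP at its C-terminus. It had 2 biological replicates, precipitated with anti-GFP antibody per the description (the antibody label reads lbe), with sonicated fragments of 200 to 800 bp. A control is named for the calling and was not analysed here, nor was any other factor, and as read counts are not part of the lists the depth is unknown. Whole embryos mix all cell types and ages, so strong occupancy in few cells and weak occupancy in many cannot be told apart.

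Each deposited list gives regions with a summit and a signal on the authors' caller scale. A gene was counted as having a peak when a summit lay within 1000 bp of any of its transcription starts. The main list holds the 4782 peaks that passed the irreproducible discovery rate (IDR) threshold, with a lowest signal of 98.7. The pooled list holds 29999 regions, peaks and background together, with a lowest signal of 18.7. Positions are in dm6, offsets from a start are negative upstream of it, and ranks count from 1 at the strongest region of a list.

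An IDR peak was present at 23 of the 80 respiratory chain genes, or 28.8% (95% Wilson interval 20 to 39.5). Among the 13865 other protein-coding genes 3386 had one, or 24.4%, which lies within that interval. Any pooled region was present at 48 of the 80 genes (60%, interval 49.0 to 70.0), beside 51.7% of the other genes. The strength of the peaks was close to that at other genes. Their median signal was 149 (range 98.8 to 369), against 156 for other genes with a peak, and the median over pooled regions was 92.0 against 93.6.

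Copies and other genes were then counted apart. Of the 59 genes that are not copies, 22 had an IDR peak, or 37.3% (interval 26.1 to 50), and 45 had a pooled region, or 76.3%. Other protein-coding genes stood at 24.4% and 51.7%, but no like filter for copies was applied to them, so the sets are unlike. Of the 21 copies, 1 had an IDR peak, or 4.76% (interval 0.846 to 22.7), and 3 had a pooled region, or 14.3%. Among the 17 copies whose symbol ends in a plain L, 0 had an IDR peak, a count that allows a share of up to 17.6%. Without those 17 the share was 36.5% (23 of 63). These intervals cover only the counting of genes, and no difference between the sets was tested.

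**Figure D1:**
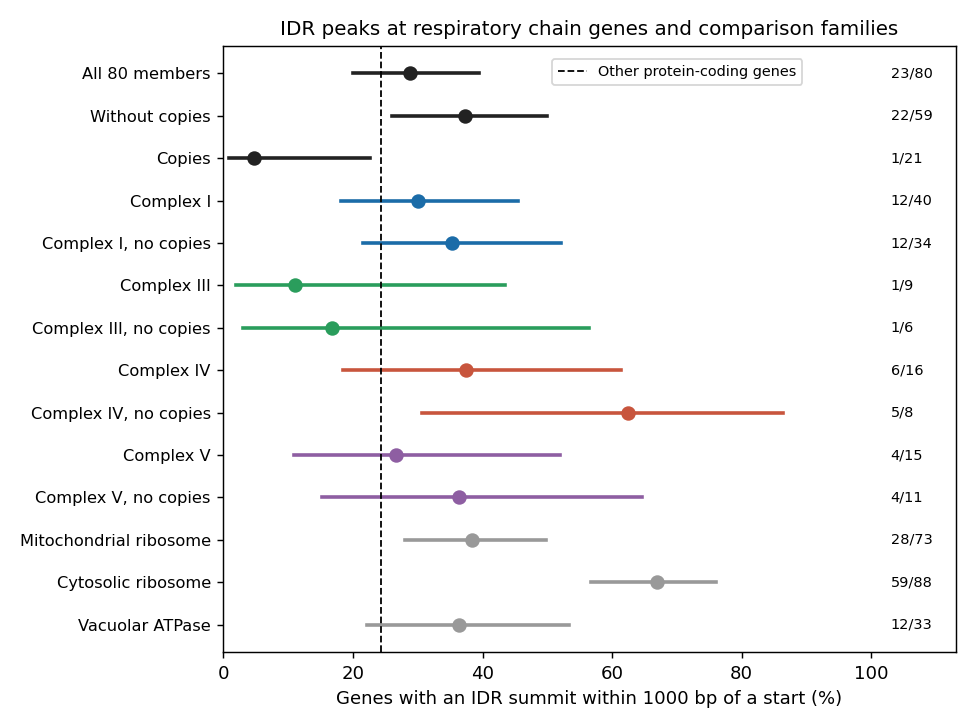
Share of genes with an IDR summit within 1000 bp of a start (x axis, percent) for each gene set (y axis); points are shares, bars are 95% Wilson intervals, the counts stand at the right and the dashed line is the share of other protein-coding genes, 24.4%. The copies lie lowest among the sets, at 4.76%, and the cytosolic ribosomal protein genes highest, at 67.0%.

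Complex I carried 12 of the 23 genes with a peak (12 of 40, 30%, interval 18.1 to 45.4), beside 24.4% of other genes. That 24.4% lies within the interval of each complex when its copies are kept. ND-ASHI (FBgn0029888), an accessory subunit of the membrane arm, had the highest signal of all 80 genes. Its peak spanned chrX:6679230-6679494 with signal 369 and rank 329, and the summit lay at −240 bp in an intron of the neighbouring gene Fum1. Replicate 1 gave signal 232 and rank 362 there, and replicate 2 gave signal 141 and rank 336. ND-75 (FBgn0017566), the large iron-sulfur core subunit, had a peak at chrX:8252213-8252622 with signal 239.7 and rank 876. Its summit was far from the start, at −731 bp, and the replicate ranks were 1517 and 486. ND-24 (FBgn0030853), another iron-sulfur core subunit, had a peak at chrX:17631998-17632407 with signal 169 and rank 1772. This summit lay at +114 bp in an intron of ND-24 itself, with ranks 1583 and 3356 in replicates 1 and 2.

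The other complex I peaks were weaker than these and mostly just upstream of a start. ND-MWFE had signal 167 at −217 bp, ND-42 signal 161 at −218 bp, ND-B22 signal 156 at −23 bp and ND-MNLL signal 153 at −18 bp. The core subunit ND-23 had signal 142 at −111 bp, and ND-13B had signal 126 at −253 bp. ND-SGDH had signal 122 at −111 bp, ND-15 signal 106 at +880 bp, and ND-ACP, the mitochondrial acyl carrier protein, signal 101 at −242 bp. Of the 7 subunits of the catalytic core, a grouping made after the values were seen, 3 had an IDR peak and 6 a pooled region. The other 27 subunits that are not copies had 9 IDR peaks (33.3%) and 18 pooled regions (66.7%). The core subunit with no pooled region was ND-51, described further on.

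A further 12 complex I genes had a pooled region below the IDR list, with signals from 51.2 at ND-20 to 92.0 at ND-39 and ND-B14.5A. ND-B18 (89.2), ND-B14.7 (78.3), ND-49 (70.3) and ND-B14.5B (65.1) were next, and ND-B14, ND-B15, ND-30, ND-B12 and ND-B17 lay between 54.6 and 60.5. The genes with no pooled region were ND-13A, ND-18, ND-19, ND-51, ND-AGGG, ND-B16.6, ND-B17.2, ND-B8, ND-MLRQ and ND-PDSW, and the copies ND-20L, ND-24L, ND-49L, ND-51L1, ND-51L2 and ND-B14.5AL. ND-51L1 and ND-51L2 derive by name from ND-51, which had no pooled region either.

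Complex III had 1 peak among 9 genes (11.1%, interval 1.99 to 43.5), beside 24.4% of other genes. The peak was at UQCR-14 (FBgn0030733), a small subunit. That peak lay at chrX:16286069-16286478 with signal 129.9 and rank 3030, and its summit at −14 bp was in the 3′ UTR of the neighbouring gene CG32576. Replicate 1 ranked the region at 2463 and replicate 2 at 6993. UQCR-6.4 (80.3), UQCR-Q (78.8) and the core protein gene UQCR-C2 (62.9) had pooled signals below the IDR list. UQCR-11 and the other core protein gene, UQCR-C1, had no region in any of the 4 lists.

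Complex IV had 6 peaks among 16 genes (37.5%, interval 18.5 to 61.4), beside 24.4% of other genes. Among its 8 genes that are not copies 5 had a peak (62.5%, interval 30.6 to 86.3), with no like filter applied to other genes. With each summit given only to the nearest start within 1000 bp, 12.5% of the 16 genes and 18.0% of other genes had a peak. COX7B (FBgn0040793) had a peak at chr3L:17425119-17425528 with signal 199 and rank 1310. The summit lay between genes at −153 bp, and the ranks were 983 in replicate 1 and 3782 in replicate 2. COX6B (FBgn0031066) had a peak at chrX:19744318-19744422 with signal 182 and rank 1533, and its summit at −54 bp ranked 1463 and 3056 in the replicates. COX8 (FBgn0263911) had a peak at chr3L:21539306-21539715 with signal 131 and rank 2992, at −64 bp, with ranks 3672 and 3223. All 3 ranked among the strongest 4782 regions of both replicates.

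COX5A (signal 128, +84 bp), COX7AL2 (123, −474 bp) and COX7C (116, +298 bp) made up the rest. COX7AL2 was the only copy with an IDR peak. At that summit replicate 1 had a region with signal 88.9 and rank 2703, and replicate 2 had none within 200 bp. The strongest replicate 2 region near a start of COX7AL2 had rank 312 and lay 3493 bp from the summit, at another start of the gene. Its partner COX7A had a pooled signal of 73.5 and no IDR peak. The copies COX7CL and COX7AL had pooled signals of 75.0 and 43.8, and COX5B, whose copy COX5BL lies on the same arm, had 56.7. The COX7CL summit lay at −912 bp, inside the annotated span of its partner COX7C, so it cannot be given to the copy alone. COX4 and 5 copies (COX4L, COX5BL, COX6AL, COX6AL2 and COX6CL) had no pooled region.

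Complex V had 4 peaks among 15 genes (26.7%, interval 10.9 to 52.0), beside 24.4% of other genes. ATPsynE (FBgn0038224), subunit e of the membrane part, had a peak at chr3R:14327636-14328045 with signal 215 and rank 1110, at +773 bp from its start. Its replicate ranks were 970 and 2060. ATPsynF (FBgn0035032), subunit f, had a peak at chr2R:24599680-24600089 with signal 149.8, rank 2305 and a summit at −64 bp. ATPsynbeta (FBgn0010217), the catalytic subunit, had a peak at chr4:1031669-1032078 with signal 149, rank 2331 and a summit at +10 bp in its own 5′ UTR. ATPsynO, which links the catalytic head to the stalk, had signal 98.8 at −11 bp and rank 4780, the lowest of the 23.

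Another 5 subunit genes of the ATP synthase lay just below the IDR list with pooled signals from 75.8 to 85.6. They were ATPsynD (85.6), ATPsynC (81.5), which encodes the rotor ring, ATPsynG (80.8), ATPsynB (78.7) and ATPsynCF6 (75.8). ATPsyndelta had the weakest pooled region of the 80 genes, with signal 19.4, and ATPsyngamma, the central stalk, had none. The copies ATPsynCF6L, ATPsynGL, ATPsynbetaL and ATPsynepsilonL had none either. Across all complexes the weakest gene inside the IDR list was thus ATPsynO at 98.8, and the strongest outside it were ND-39 and ND-B14.5A at 92.0.

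**Figure D2:**
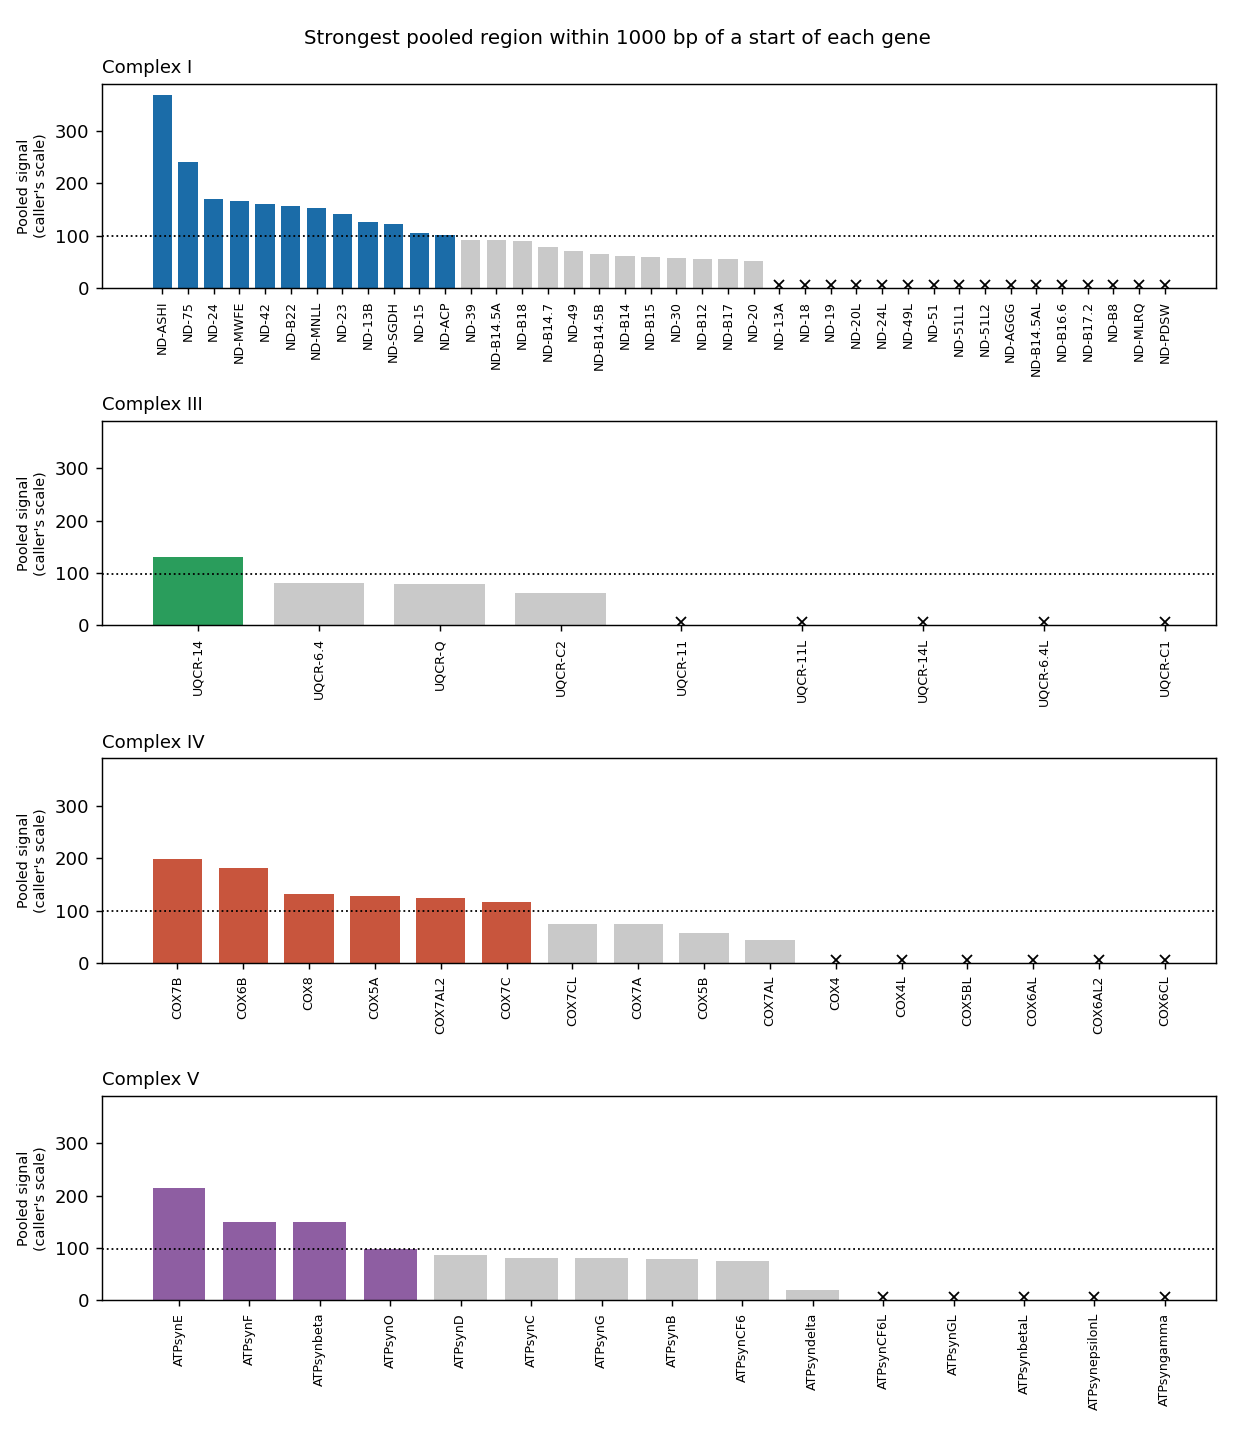
Signal of the strongest pooled region within 1000 bp of a start (y axis, caller's scale) for each gene (x axis), in 4 panels by complex; coloured bars have an IDR peak, grey bars have not, crosses mark genes with no pooled region and the dotted line is the lowest IDR signal, 98.7. ND-ASHI stands highest at 369, and most crosses in complexes III, IV and V are copies.

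The bases at the summit of the strongest peak of each complex are shown as the positions that the lists place at the centre of binding. Each line gives 30 bases of the reference genome on the gene's own strand, at chrX:6679343-6679372 (minus strand), chrX:16286259-16286288 (plus), chr3L:17425309-17425338 (plus) and chr3R:14327826-14327855 (plus). Capitals mark the TATA word TATAAA at ND-ASHI and the GAGA word GAGAGA at ATPsynE, and the other pair of stretches held none of the 8 words searched.
ND-ASHI summit: tgcaatagcaattcTATAAAaacagactga
UQCR-14 summit: cggaaatcgatttgtacaaacgcaaccgta
COX7B summit: agcaaaaatatgctaagactacagaaacca
ATPsynE summit: taggagaggattGAGAGAatttgagagggt
The 30 bases held 70.0% A and T at ND-ASHI, 66.7% at COX7B, and 56.7% at both UQCR-14 and ATPsynE.

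Replicates were compared through the 4782 regions of highest signal in each list, the number of IDR peaks. In replicate 1, 23 of the 80 genes (28.8%) had such a region, beside 25.7% of other genes, and in replicate 2 it was 22 (27.5%) beside 22.2%. Both replicates had one at 16 genes (20%, interval 12.7 to 30), beside 16.8% of other genes. Another 7 of the 80 genes (8.75%) had one in replicate 1 alone, beside 8.85% of other genes. In replicate 2 alone it was 6 of 80, beside 5.42%, and in neither 51 (63.8%), beside 68.9%. By complex, both replicates had one at 9 of 40 genes of complex I (22.5%) and 6 of 16 of complex IV (37.5%). In complex V it was 1 of 15 (6.67%, ATPsynE), and the share of other genes was the 16.8% above. Complex III had 0 of 9, which allows up to 33.3%, since UQCR-14 passed in replicate 1 alone. Any region at all was found at 57 of the 80 genes in replicate 1 (71.2%, interval 60.5 to 80%), beside 56.2% of other genes. In replicate 2 it was 46 (57.5%, interval 46.6 to 67.7), beside 51.7%.

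These counts take the strongest region near any start of a gene, which need not be the IDR region. Counted within 200 bp of the 23 IDR summits, a match made after the values were seen, 19 summits had a region in both replicates. The regions were among the strongest 4782 of both replicates at 14 summits, of replicate 1 alone at 5, of replicate 2 alone at 3 and of neither at 1. ND-13B and COX7AL2 had no replicate 2 region so close to the summit.

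Several genes were uneven between the replicates. ATPsynF had no region within 1000 bp in replicate 1 and signal 69.6 with rank 1934 in replicate 2. ATPsynbeta had the reverse, with signal 96.3 and rank 2304 in replicate 1 and no region in replicate 2. Both were nevertheless in the IDR list, so membership of that list did not require a region in each replicate at the gene. Of the other genes with an IDR peak, ND-ACP, ND-15, ND-13B, UQCR-14 and COX7C were among the strongest 4782 in 1 replicate only. ATPsynO was so in neither, with ranks 5183 and 6328.

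COX4, the largest nuclear subunit of cytochrome c oxidase, showed the opposite arrangement. Replicate 1 had a region with signal 102 and rank 2049 at −121 bp, and replicate 2 one with signal 49.8 and rank 3747 at −127 bp. The summits were therefore close together and within the strongest 4782 of each list, yet the nearest pooled summit lay 8535 bp from a COX4 start. Among the 16 genes with a strong region in both replicates COX4 alone lacked a pooled region (6.25%). The same was seen at 23 of 2330 other genes (0.987%), which is 0.166% of all other genes. ND-51, the flavin-binding core subunit of complex I, had signal 110.3 and rank 1725 in replicate 1, no region in replicate 2, and no pooled summit nearer than 3333 bp. ATPsyngamma had ranks 4598 and 10693 and no pooled summit nearer than 3648 bp.

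**Figure D3:**
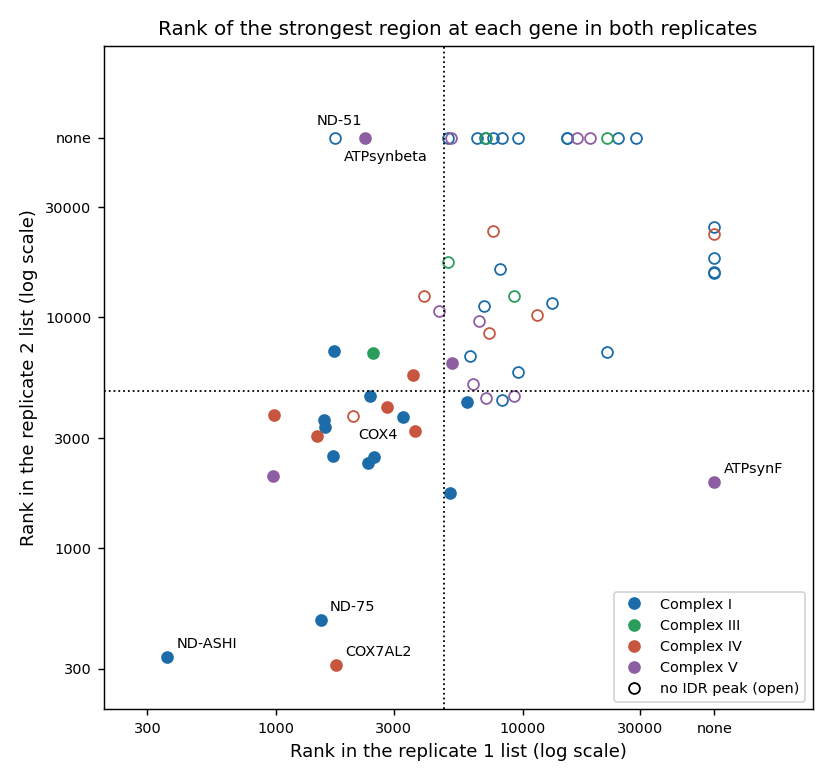
Rank of the strongest region within 1000 bp of a start of each gene in the replicate 1 list (x axis) and the replicate 2 list (y axis), both on log scales with genes lacking a region placed at "none"; filled points have an IDR peak and dotted lines mark rank 4782. The COX7AL2 regions plotted are not those at its IDR summit, COX4 is the single open point in the lower left, ATPsynF has no replicate 1 region and ATPsynbeta has no replicate 2 region.

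The copies were set beside the genes they are named after. The 21 copies have 18 partner genes by name, counting levy as the gene for subunit 6A, cype for 6C and sun for the epsilon subunit of the ATP synthase. Of the 18 partners, 5 had an IDR peak (ND-24, UQCR-14, levy, COX7C and ATPsynbeta) and 15 had a pooled region. Among the protein-coding genes outside the 80 the shares were 24.4% with an IDR peak and 51.7% with a pooled region. The IDR count of the partners was thus near the IDR share, while their pooled count, 15 of 18, lay above the pooled share. Neither difference was tested. ATPsynbeta, for example, had signal 149, and ATPsynbetaL had no region in any list. In all, 17 of the 80 genes had no region in any of the 4 lists. Of these, 14 were copies and the other 3 were ND-B17.2, UQCR-11 and UQCR-C1. The like count was not made for other protein-coding genes, so the 17 cannot be called many or few.

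Many of the peaks lay between starts of neighbouring genes, so that a summit could not be given to 1 gene. The summit was nearest to the start of the respiratory chain gene in 13 of 23 cases (56.5%, interval 36.8 to 74.4), 1 of them, ND-MNLL, tied with CG45089 at 18 bp. For other genes with a peak the share was 70.6%. In 6 of 23 cases (26.1%) the respiratory chain gene was the only protein-coding gene with a start within 1000 bp of the summit, against 40.4% of other genes. Those 6 were ND-13B, ND-ACP, ND-B22, UQCR-14, COX7AL2 and ATPsynO.

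In the remaining 10 cases another start was nearer. The ND-42 summit lay 11 bp from the start of Cchl, the cytochrome c heme lyase, and 218 bp from that of ND-42. The ND-MWFE summit lay 4 bp from TppII, a peptidase gene, in an intron of which it fell. The ATPsynE summit lay 210 bp from spn-B, a meiotic recombination gene, and the ND-75 summit 252 bp from CG1632. The COX7C summit was 32 bp from oys, that of COX5A 23 bp from glo, and that of COX7B 107 bp from Sec3, an exocyst gene. COX6B shared its region with CG33932 and Rpp20 at 42 bp, ATPsynF with CG3548 at 62 bp, and ND-15 with CG3436 at 66 bp. The ND-ASHI summit lay 282 bp from Fum1, the fumarase of the citric acid cycle, so both genes were counted for 1 peak.

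**Figure D4:**
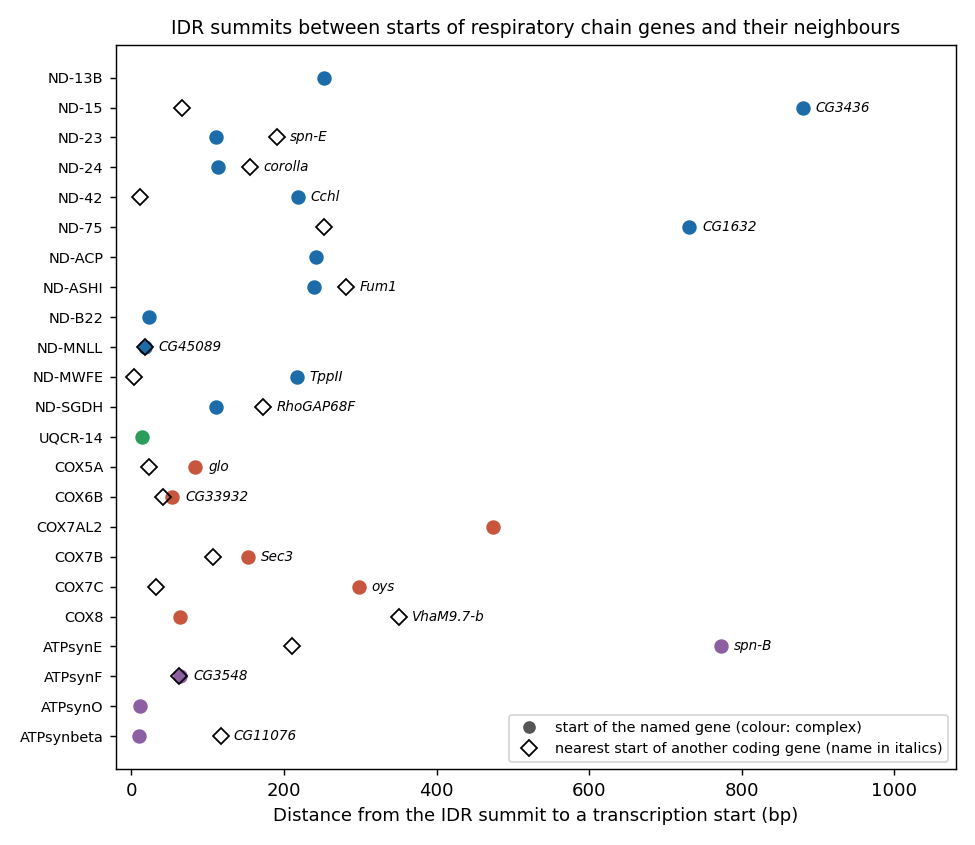
Distance from each IDR summit (x axis, bp) to the start of the respiratory chain gene (filled circle, coloured by complex) and to the nearest start of another protein-coding gene within 1000 bp (open diamond, named in italics), 1 line per gene. The diamond is nearer than the circle for 10 of the 23 genes, and 6 genes have no diamond.

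Divergent pairs were common among these genes. A protein-coding gene on the other strand started within 1000 bp upstream of 39 of the 80 genes (48.8%, interval 38.1 to 59.5), beside 35.2% of other genes. The share was 61.0% for the 59 genes that are not copies and 14.3% for the copies. Of the respiratory chain genes in such pairs 38.5% (15 of 39) had a peak, beside 39.5% of other genes in pairs. Outside such pairs the shares were 19.5% (8 of 41) and 16.2%. The former combines 30.4% of the genes that are not copies (7 of 23, interval 15.6 to 50.9) with 5.56% of the copies (1 of 18, interval 0.988 to 25.8). In pairs the genes that are not copies stood at 41.7% (15 of 36), and 0 of 3 copies had a peak. When each summit was given only to the protein-coding gene with the nearest start within 1000 bp, 16.2% of the 80 genes and 18% of other genes had a peak, and the direction of the difference was the reverse of that above.

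By the counting rule all 23 summits lay within 1000 bp of a start, and none fell in coding sequence. The median distance was 114 bp, beside 150 bp for other genes with a peak, and 17 of 23 (73.9%) lay within 250 bp, beside 68.9%. Upstream of the start were 73.9%, beside 80.6%. By annotation 12 summits lay between genes, 6 in introns, 3 in 5′ UTRs and 2 in 3′ UTRs. By arm, the X carried 6 of the peaks at its 12 genes (50%, interval 25.4 to 74.6), beside 22.1% of other X-linked genes, a comparison singled out after the values were seen. The shares on 2L, 2R, 3L and 3R ran from 18.8% to 31.2%, beside 23.3% to 26.1% of other genes on those arms. All copies lie on those arms and none on the X, so the X share is not like the others. Over all arms, 22 of the 59 genes that are not copies had a peak (37.3%).

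The promoter windows, 250 bases before to 50 after the outermost start, were searched on either strand for 8 words. The DNA replication-related element (DRE, letters TATCGATA), bound by the factor Dref, was in 9 of 80 windows (11.2%) beside 9.35% of other protein-coding promoters. All 9 were in genes that are not copies (9 of 59, 15.3%, interval 8.24 to 26.5), and 0 of 21 copies had it, which allows up to 14.3%. Motif 1 (GGTCACAC), a core promoter word of housekeeping genes, was in 15 of 80 windows (18.8%, interval 11.7 to 28.7) beside 7.64%. It was in 23.7% of the genes that are not copies and in 4.76% of the copies. The words do not overlap each other in their letters.

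Both words were also counted in genes with and without a peak, where the counts are small. The DRE was in 4 of 23 genes with an IDR peak (17.4%) and 5 of 57 without (8.77%), and in 15.7% and 7.29% of other genes. Motif 1 was in 17.4% with and 19.3% without a peak, and in 10.8% and 6.60% of other genes. In windows of 100 bp either side of the outermost start the DRE shares were 8.70% with and 7.02% without a peak. For other genes these were 13.0% and 6.16%. Within 100 bp of the IDR summits the DRE was at 1 of 23 (4.35%), beside 7.98% of the other summits near protein-coding starts. The 4 DRE sites of genes with a peak, and that of COX4, are shown with 5′ and 3′ context on the gene's strand and the word in capitals. They lie at chr2L:114592-114621, chr3R:15837346-15837367, chrX:7893993-7894022, chrX:16286215-16286244 and chr2L:19958600-19958629, in the order of the lines.
ND-15: tgcaatcgataTATCGATAtgtcacaatca
ND-23: ttaTATCGATAgtgccattatc
ND-MNLL: agacgcccactTATCGATAagcggcttgtc
UQCR-14: tgagtgcgataTATCGATAggtgcagtgtg
COX4: gcgattgaataTATCGATAtattaatattt
The gap from the word to the IDR summit was 41 bp at UQCR-14, 129 bp at ND-23 and 188 bp at ND-MNLL. At ND-15 it was 41605 bp, since the window was taken at the outermost start and the peak lies near the other end of the gene, 66 bp from the start of CG3436. COX4 also held Motif 1, 62 bases upstream of its start, and its DRE began 102 bases upstream.

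Words of the homeodomain type were about as frequent as in other promoters. The homeodomain core (TAATTA) was in 23.8% of the 80 windows beside 20.4% of other promoters, and the ladybird-type word (TAACTA) in 21.2% beside 16.7%. Within 100 bp of the 23 summits the core was found at 2 (8.70%, interval 2.42 to 26.8), beside 15.6% of the other summits near protein-coding starts. The ladybird-type word was also at 2 of 23, beside 11.7%. Median A and T content in those windows was 65.7%, beside 63.7%. The E-box CAGCTG was in 23.8% of the gene windows beside 17.6%, the TATA word TATAAA in 53.8% beside 45.7%, and the GAGA word GAGAGA in 5% beside 12.3%.

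**Figure D5:**
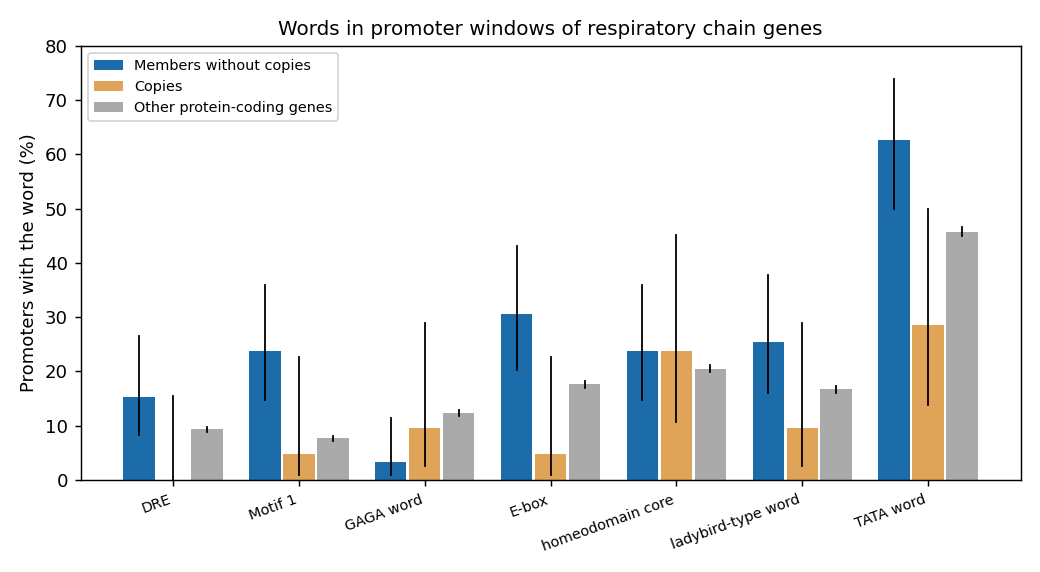
Share of promoter windows holding each of 7 words (x axis) in percent (y axis, from 0), for the 59 genes that are not copies, the 21 copies and other protein-coding genes; lines are 95% Wilson intervals. Motif 1 reaches 23.7% in the genes that are not copies and 7.64% in other genes, and the homeodomain core lies between 20.4% and 23.8% in all 3 sets.

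The nuclear respiratory gene (NRG) element is a consensus known from Drosophila genes of oxidative phosphorylation. Its letters as searched came from general knowledge and from no file used here, so they may differ from the published form and the counts hold only for these letters. It was in 0 of 80 promoter windows, which allows up to 3.75%, and in 0.159% of other promoters. In a wider window from 500 bp before to 1000 bp after the outermost start, chosen after the first count was seen, it was in 5 of 80 genes (6.25%, interval 2.70 to 13.8) and in 102 of 13865 others (0.736%). All 5 matches are shown with the element in capitals, since it was rare in the same wide window of other genes. They began 385 to 966 bp after the outermost start, so none lay in a promoter window. They lie at chr3L:24976828-24976856, chr2L:19959089-19959117, chr3R:11820316-11820344, chr3R:31219132-31219160 and chr4:1032088-1032116, in the order of the lines, on the gene's strand.
ND-AGGG: tgacttattTGTTACATAATactcggtcc
COX4: tctgctagcTGTTACATAACctccaacta
COX5A: tccctgttgGTTACGTAACAcccaggtta
ATPsynC: ttttccgcaTGTTACGTAACttttctgag
ATPsynbeta: aaaaaaaatATTACATAACAattttgaat
The elements of COX4 and ATPsynC lay in the 5′ UTR, that of ATPsynbeta in an intron, that of ND-AGGG in the 3′ UTR and that of COX5A between genes. COX5A and ATPsynbeta had an IDR peak and the other three had none.

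Respiratory chain genes that the symbols miss were counted apart. Of 19 such genes 8 (42.1%, interval 23.1 to 63.7) had an IDR peak, beside 24.4% of protein-coding genes outside the 80. The cytochrome c genes Cyt-c-d (signal 367) and Cyt-c-p (286) were highest, followed by blw (205), the alpha subunit of the ATP synthase, and SdhA (182), the flavoprotein of complex II. Cyt-c1, Cyt-c1L, RFeSP and Scox were among the 11 without a peak. Of 11 citric acid cycle genes 7 had one (63.6%, interval 35.4 to 84.8), beside 24.4% of protein-coding genes outside the respiratory chain set. Fum1 (369), Idh3g (295), mAcon1 (184) and Ogdh (128) were highest, and Idh3a, Mdh2, Scsalpha1 and ScsbetaG had none. The replicates were uneven here. Among the strongest regions of replicate 1 the share was 54.5% (6 of 11), beside 25.7% of genes outside the set. In replicate 2 it was 27.3% (3 of 11, interval 9.75 to 56.6), beside 22.2%. Idh3g and Idh3b had no replicate 2 region near a start.

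Of 10 genes for mitochondrial gene expression and its regulators 2 had a peak, Dref (223) and mtTFB2 (147). PolG1, PolG2, PolrMT and TFAM were among those without. The interval for 2 of 10 was 5.67 to 51.0, which holds the 24.4% of protein-coding genes outside the respiratory chain set. Genes of the mitochondrial ribosome had a share of 38.4% (28 of 73), the vacuolar ATPase 36.4% (12 of 33) and the cytosolic ribosome 67.0% (59 of 88). These shares also stand beside the 24.4%. The 37.3% of the respiratory chain genes that are not copies was close to the shares of the mitochondrial ribosome and the vacuolar ATPase. It was below that of the cytosolic ribosome, and none of these differences was tested. The sets are unlike, since those families were taken by symbol prefix with no copies left out. With its copies kept, the respiratory chain set stood at 28.8%.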

How the data were processed

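The authors deposited narrowPeak lists for each replicate, for both pooled and past the IDR threshold, in dm3 and dm6. Only dm6 was used. Per the labels, the deposited signal of a region comes from calling against a control, and its scale is not stated. The deposited q-value, as −log10, was not used for ranking. No aligner or caller is named in the labels or lists. Regions were ranked by signal, and summits were taken as the region start plus the deposited offset. Genes came from Ensembl release 115 (BDGP6.54) and bases from the RefSeq release 6 genome.

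Python 3.11.15, numpy 2.4.6, scipy 1.17.1 and matplotlib 3.10.9 were used. Counts were tested on simulated data with planted summits. The 2 samples form 1 group, numbered as labelled, and no test was run. Intervals are 95% Wilson intervals. The genes and lists were chosen with earlier results of these data known. Full values were fixed for the 3 strongest genes per complex and sequences for at most 6 genes; further sequences were added after values were seen. From the lists, SdhAF3, SdhAF4 and Nc73EF were not found in the annotation.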

Additional observations from a re-analysis of the deposited data

Results flagged for a closer look

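The mitochondrial genome, which lies outside the counts of nuclear genes, held 29 IDR peaks, among them 19 of the 20 strongest of the whole list. They are not separate regions: 25 of the 29, with all 19 of those, are summits of 1 region from position 1 to 15734, which covers all 13 protein-coding genes of that genome. A summit lay inside 10 of the 13 genes, all of which encode subunits of complexes I, III, IV and V. The highest summits were in mt:CoI (signal 14646, rank 1), mt:CoIII (11407, rank 2) and mt:CoII (10087, rank 3), and mt:ATPase8, mt:ND3 and mt:ND4L held none. In the replicates mt:CoI had signal 2350.2 and rank 2 in replicate 1, and 12719 and rank 1 in replicate 2. The control was not analysed here, and what sets this signal was not tested.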

How the results depend on the processing

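The share of the 80 genes with a peak (28.8%) was 16.2% with a 200 bp window, 16.2% where the region had to cover the start, 60% in the pooled list, 15% in the 2391 stronger IDR peaks and 16.2% with only the nearest start within 1000 bp, an alternative added after the data were seen. For other genes (24.4%) the same settings gave 16.5%, 14.9%, 51.7%, 13.7% and 18%; windows of 500 and 2000 bp gave 21.5% and 29.1%, the nearest start at any distance 22.4% and the outermost start 22.6%. The ratio of both shares was 1.18, and it fell below 1 with the 200 bp window (0.983), the nearest start (0.894) and the nearest within 1000 bp (0.904). With copies left out it was 1.53 and stayed between 1.06 and 1.69 in every setting run. Copies were left out of the respiratory chain genes only, and no like filter was applied to the other genes. The rise of the ratio without copies therefore compares unlike sets.

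Complex I (30%) moved to 12.5% in the 200 bp window and where regions covered the start, 60% pooled and 17.5% in the stronger peaks. Complex III (11.1%) moved to 44.4% and 0, and complex IV (37.5%) to 62.5% and 12.5%, pooled and in the stronger peaks, and complex IV to 12.5% with the nearest start within 1000 bp and 62.5% without copies. Complex V (26.7%) was 66.7% pooled, 46.7% with a 2000 bp window and 13.3% with the nearest start, both at any distance and within 1000 bp. Complex III was 33.3% with the 2000 bp window and 16.7% without copies, and complex IV 18.8% with the nearest start at any distance and 60% without the copies ending in a plain L. With 1 replicate's strongest 4782 regions alone, the ranges were 27.5% to 28.8% for the 80 genes, 27.5% to 30%, 0 to 11.1%, 37.5% to 50% and 20% to 26.7% for complexes I, III, IV and V, and 22.2% to 25.7% for other genes; complex III was at 0 without replicate 1. In windows of 100 bp either side of the start the homeodomain core was in 8.75% of the 80 genes, beside 9.90% of other promoters. There the ladybird-type word was in 11.2% beside 9.48%, and the TATA word in 30% beside 29.1%. The wide window gave 6.25% for the NRG element. Smaller windows hold fewer bases; other causes were not tested. No symbol from COX10 to COX20 was among the genes, so that alternative changed nothing. No paired analysis was possible because there is 1 group.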
